A study of Saccharomyces cerevisiae with 8 samples.

Results

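The SCF complexes are ubiquitin ligases of *Saccharomyces cerevisiae*, and the transcripts of 10 genes of this family were followed here. Of these genes 4 encode the parts that the complexes share, *CDC53*, *SKP1*, *HRT1* and *CDC34*, and 6 encode F-box proteins, *CDC4*, *GRR1*, *SAF1*, *UFO1*, *DIA2* and *MDM30*. They were chosen by name, without *MET30*, from 5449 genes with a named probe set on Affymetrix expression arrays, and each was measured by 1 probe set. The study shifted a temperature-sensitive strain to its non-permissive temperature to find transcripts that mark inhibition of Met30. There were 4 groups of 2 arrays: the met30-6 strain (py283) held for 1 h at 35 °C, met30-6 at 25 °C, strain PY1 after 1 h at 35 °C, and PY1 at 25 °C. All cultures grew in YPDA medium at 25 °C, called room temperature in the labels, to mid-log phase. The labels name the strains by the *met30-6* allele and by PY1 alone, and further alleles are not given. Nor do the labels say whether the 2 arrays of a group came from separate cultures. The p-values therefore cover the spread between the deposited arrays alone, and that spread may be technical.

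An SCF complex is built on the cullin Cdc53, which binds the RING protein Hrt1 at one end and the adaptor Skp1 at the other. Hrt1 brings in the ubiquitin-conjugating enzyme Cdc34, and Skp1 holds an F-box protein that picks the substrate, often after the substrate is phosphorylated. F-box proteins are exchangeable, so many ligases share the same core. Met30 is the F-box protein that picks Met4, the activator of sulfur amino acid genes, for ubiquitination, and the F-box genes described here encode its alternatives on that core.

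Values are deposited log2 expression values, and the log base was inferred from their range, so each fold stated rests on base 2. Array medians lay between 10.973 and 11.088, and the 2 arrays of each group had a Pearson's r of 0.9927 to 0.9951 over the probe sets, which are not independent replicates. The 10 genes ranged between 9.424 and 12.806 over all arrays, so each lay above the mean of 6 that marks dim genes here, and their SD within a group was at most 0.185. Calls are those with an adjusted p under 0.05 in limma, fitted to all 5449 genes. *MET30* itself averaged 13.07 in met30-6 at 35 °C, 11.67 in met30-6 at 25 °C, 10.97 in PY1 at 35 °C and 11.02 in PY1 at 25 °C. The labels give no mating type. The MATa markers *MFA1*, *MFA2*, *STE2* and *STE6* lay between 11.421 and 13.383 on every array and *BAR1* between 3.386 and 7.033, while the MATalpha markers *MF(ALPHA)1*, *MF(ALPHA)2* and *STE3* lay at or below 6.553 and *SAG1* between 9.716 and 10.183. Values of different probe sets are not compared as levels.

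The transcripts of the cullin gene and of *SAF1* parted most between the strains. *CDC53*, the scaffold on which every SCF complex is built, read 12.182 and 12.218 in met30-6 at 35 °C, against 11.646 and 11.657 in met30-6 at 25 °C. In PY1 it read 11.409 and 11.430 at 35 °C, against 11.622 and 11.615 at 25 °C. The met30-6 arrays at 35 °C stood above all others, the PY1 arrays at 35 °C stood below all others, and no groups overlapped. *CDC53* thus rose by 0.55 ± 0.0474 (log2 difference ± SE) with temperature in met30-6 and fell by 0.20 ± 0.0474 in PY1, with adjusted p = 7.41e-05 and adjusted p = 0.0181. The PY1 call was lost on leaving out replicate 1 at 35 °C (−0.19, adjusted p = 0.0823) or replicate 2 at 35 °C (−0.21, adjusted p = 0.0689), and when the PY1 arrays alone were fitted (adjusted p = 0.0824).

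*SKP1* encodes the adaptor between cullin and F-box protein, which also serves at the kinetochore. It read 12.806 and 12.724 in met30-6 at 35 °C, against 12.365 and 12.450 at 25 °C, and 12.533 and 12.660 in PY1 at 35 °C, against 12.498 and 12.363 at 25 °C. The order was met30-6 at 35 °C, PY1 at 35 °C and then the groups at 25 °C, which overlapped. *SKP1* rose by 0.36 ± 0.0755 in met30-6 (adjusted p = 0.00491), and its difference of 0.17 ± 0.0755 in PY1 was not called (adjusted p = 0.131).

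*HRT1*, the RING subunit gene, read 11.730 and 11.823 in met30-6 at 35 °C, against 11.419 and 11.428 at 25 °C. In PY1 it read 11.508 and 11.525 at 35 °C, against 11.501 and 11.437 at 25 °C. Only the met30-6 arrays at 35 °C stood well apart, since the gaps between the other 3 groups were at most 0.009. It rose by 0.35 ± 0.0555 in met30-6 (adjusted p = 0.00125), while the difference of 0.05 ± 0.0555 in PY1 was not called (adjusted p = 0.544).

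*CDC34*, the gene of the ubiquitin-conjugating enzyme, had overlapping values in every neighbouring pair of groups. It read 10.568 and 10.829 in met30-6 at 35 °C, against 10.587 and 10.572 at 25 °C, and 10.729 and 10.709 in PY1 at 35 °C, against 10.575 and 10.774 at 25 °C. The spread between replicates at met30-6 35 °C, an SD of 0.185, was the widest among the 10 genes. Its temperature difference was 0.12 in met30-6, with a 95% interval of −0.12 to 0.36, and 0.04 in PY1, with an interval of −0.20 to 0.29. Neither was called.

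**Figure D1:**
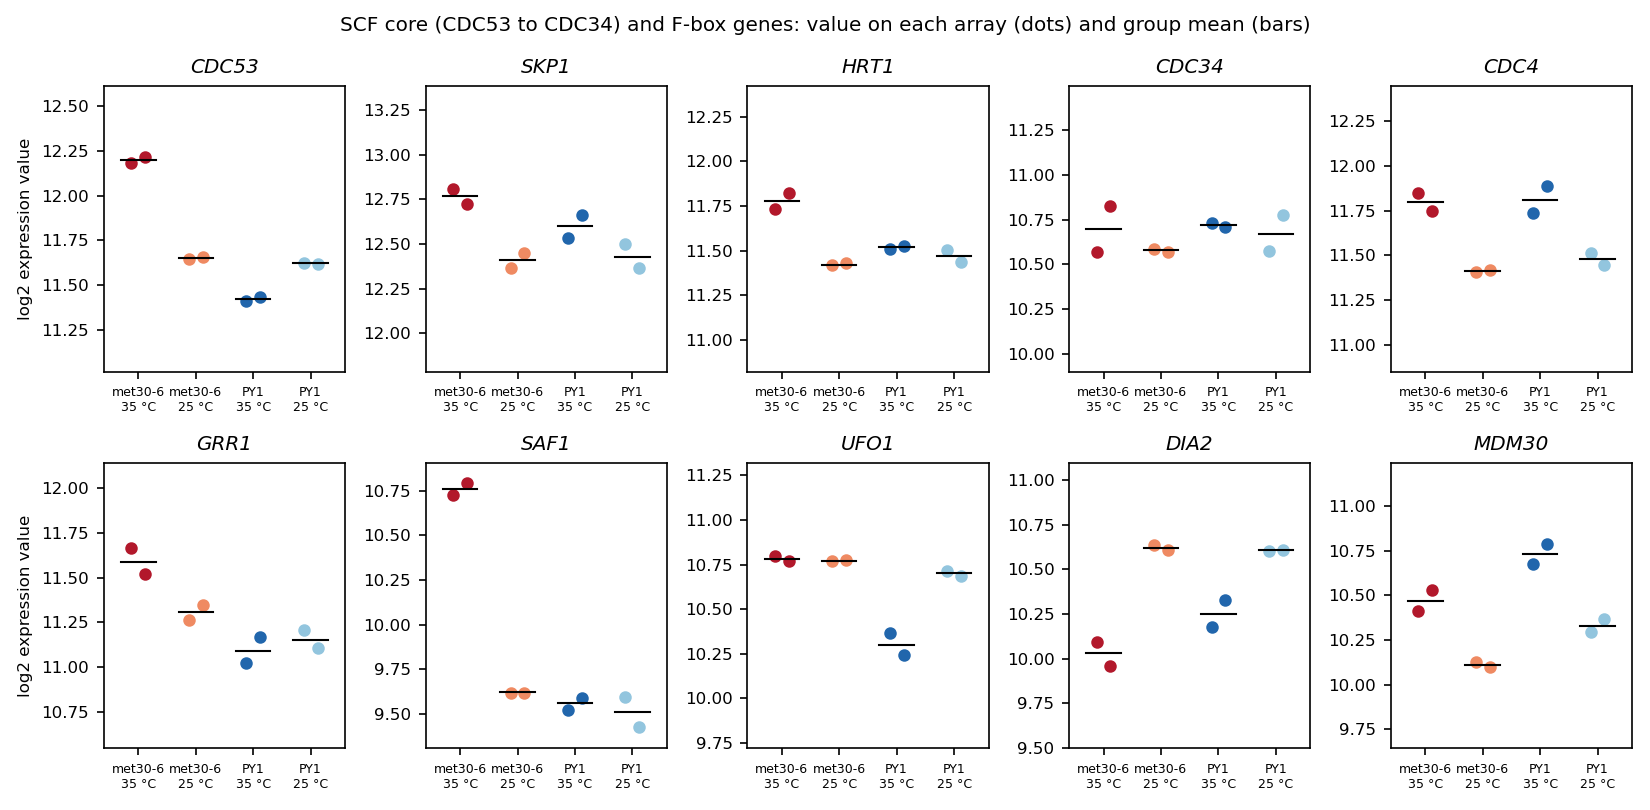
Log2 expression value (vertical axis, each panel spanning the same range of log2 units) of the 10 genes on each of the 8 arrays, by strain and temperature (horizontal axis); dots are arrays and bars are group means (n = 2). *SAF1* and *CDC53* stand apart in met30-6 at 35 °C, *UFO1* is lowest in PY1 at 35 °C, and *DIA2* is lower at 35 °C than at 25 °C in each strain.

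Among the F-box genes, *SAF1* differed most between the strains. Saf1 directs the adenine deaminase Aah1 to degradation when cells enter quiescence. *SAF1* read 10.726 and 10.790 in met30-6 at 35 °C, against 9.616 and 9.619 in met30-6 at 25 °C. In PY1 it read 9.524 and 9.589 at 35 °C, against 9.595 and 9.424 at 25 °C. The met30-6 arrays at 35 °C were above all others by at least 1.107, and the PY1 groups overlapped. *SAF1* rose 2.20-fold with temperature in met30-6 (1.14 ± 0.0700, adjusted p = 1.62e-05), and its difference in PY1 was 0.05 ± 0.0700 (adjusted p = 0.64).

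*UFO1* encodes the F-box protein that targets the Ho endonuclease of mating-type switching. It read 10.796 and 10.770 in met30-6 at 35 °C, against 10.767 and 10.777 at 25 °C. In PY1 it read 10.364 and 10.246 at 35 °C, against 10.713 and 10.683 at 25 °C. The PY1 arrays at 35 °C were the low ones, and the met30-6 groups overlapped. *UFO1* fell by 0.39 ± 0.0572 in PY1 (adjusted p = 0.00279), and its difference in met30-6 was 0.01, with a 95% interval of −0.13 to 0.15 (adjusted p = 0.874).

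*GRR1*, whose product turns over the G1 cyclins Cln1 and Cln2 and regulators of glucose sensing, read 11.668 and 11.519 in met30-6 at 35 °C, against 11.265 and 11.346 at 25 °C. In PY1 it read 11.022 and 11.168 at 35 °C, against 11.206 and 11.104 at 25 °C. The met30-6 arrays stood above those of PY1 at each temperature, and the PY1 groups overlapped. *GRR1* rose by 0.29 ± 0.0813 in met30-6 (adjusted p = 0.0171). That call was lost on leaving out replicate 1 of met30-6 at 25 °C (0.25, adjusted p = 0.0904) or replicate 1 at 35 °C (0.21, adjusted p = 0.0959). In PY1 the difference was −0.06 ± 0.0813 (adjusted p = 0.605).

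*CDC4* and *MDM30* were higher at 35 °C than at 25 °C in each strain. Cdc4 removes the cyclin-dependent kinase inhibitor Sic1 at the start of S phase. *CDC4* read 11.846 and 11.745 in met30-6 at 35 °C, against 11.409 and 11.415 at 25 °C, and 11.735 and 11.886 in PY1 at 35 °C, against 11.510 and 11.443 at 25 °C. The groups at 35 °C overlapped each other and lay above those at 25 °C. It rose by 0.38 ± 0.0700 in met30-6 (adjusted p = 0.00252) and by 0.33 ± 0.0700 in PY1 (adjusted p = 0.0114). The PY1 call was lost on leaving out replicate 2 at 25 °C (0.30, adjusted p = 0.0524) or replicate 2 at 35 °C (0.26, adjusted p = 0.0648).

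Mdm30 acts in mitochondrial fusion, where it turns over the mitofusin Fzo1. *MDM30* read 10.413 and 10.533 in met30-6 at 35 °C, against 10.128 and 10.101 at 25 °C, and 10.675 and 10.788 in PY1 at 35 °C, against 10.296 and 10.367 at 25 °C. No groups overlapped, and at each temperature met30-6 was the lower strain. *MDM30* rose by 0.36 ± 0.0675 in met30-6 (adjusted p = 0.00292) and by 0.40 ± 0.0675 in PY1 (adjusted p = 0.00512).

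*DIA2* was the F-box gene with lower values at 35 °C in each strain. Dia2 acts at replication forks and in the unloading of the replicative helicase. *DIA2* read 10.093 and 9.961 in met30-6 at 35 °C, against 10.635 and 10.608 at 25 °C, and 10.178 and 10.331 in PY1 at 35 °C, against 10.605 and 10.610 at 25 °C. The groups at 25 °C overlapped and stood above those at 35 °C. *DIA2* fell by 0.59 ± 0.0721 in met30-6 (adjusted p = 0.00036) and by 0.35 ± 0.0721 in PY1 (adjusted p = 0.0104). The PY1 call was lost on leaving out replicate 1 at 35 °C (−0.28, adjusted p = 0.0547).

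The counts of calls with temperature were read against those over the whole array. In met30-6, 7 of the 10 genes rose and 1 fell, where 68.1% of all genes were called, 38.8% higher and 29.3% lower. In PY1, 2 rose and 3 fell, where 36.7% of all genes were called, 26.2% higher and 10.4% lower. The median difference of the 10 genes was 0.36 in met30-6, against 0.074 over all genes, and 0.05 in PY1, against 0.075 over all genes. Among the called genes, *SAF1* in met30-6 was the member whose change reached 2-fold. In PY1 the direction of calls over all genes depended on scaling: 71.5% of them were higher as deposited, 58.3% with array medians centred and 49.8% with quantile normalisation. The 5 member calls in PY1 kept their directions under these scalings. In met30-6, 57% of the calls over all genes were higher as deposited, 57.5% with array medians centred and 48.9% with quantile normalisation. The median over all genes in met30-6 was −0.012 with quantile normalisation. The member calls in met30-6 stayed at 7 higher and 1 lower under these scalings.

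The interaction, which is the temperature difference in met30-6 minus that in PY1, tested whether the strains responded differently. It was called for 5 of the 10 genes, where 48.3% of all genes were called, so the number of calls was near that of the whole array. Each of the 5 was higher, where 23.7% of all genes were called higher and 24.5% lower. The median was 0.25 for the 10 genes and 0.002 over all genes. *SAF1* had the highest value, 1.09 ± 0.0990 (adjusted p = 0.000252), with 236 of the 5449 genes above it. *CDC53* followed at 0.75 ± 0.0670 (adjusted p = 0.000242), with 452 genes above it. These are ratios of ratios of 2.13-fold and 1.68-fold.

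*UFO1* (0.40 ± 0.0808, adjusted p = 0.00647), *GRR1* (0.35 ± 0.115, adjusted p = 0.0433) and *HRT1* (0.31 ± 0.0785, adjusted p = 0.0174) were the other called genes. The value of *UFO1* came with a fall in PY1 and a difference near 0 in met30-6, while those of *GRR1* and *HRT1* came with a rise in met30-6. Without PY1 35 °C replicate 1, met30-6 25 °C replicate 1 or met30-6 25 °C replicate 2, 3 of the 10 genes were called. The genes lost were *GRR1* and *HRT1*. For *GRR1* the values without these arrays were 0.27, 0.31 and 0.39 in that order, and its call also ended without PY1 25 °C replicate 1 (0.30) and met30-6 35 °C replicate 1 (0.27), with adjusted p up to 0.128. For *HRT1* they were 0.30, 0.30 and 0.31, and its call also ended without met30-6 35 °C replicate 2 (0.26), with adjusted p up to 0.0623.

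The interaction was not called for the other 5 genes, and the intervals give the sizes that the arrays leave room for. The 95% interval was −0.06 to 0.45 for *SKP1*, −0.27 to 0.42 for *CDC34*, −0.19 to 0.29 for *CDC4* and −0.27 to 0.19 for *MDM30*. For *DIA2* the value was −0.24 (adjusted p = 0.0931), with a lower bound of −0.48. *SKP1* was called with array medians centred (0.25, adjusted p = 0.0399), but with quantile normalisation it was at 0.05 (adjusted p = 0.57).

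**Figure D2:**
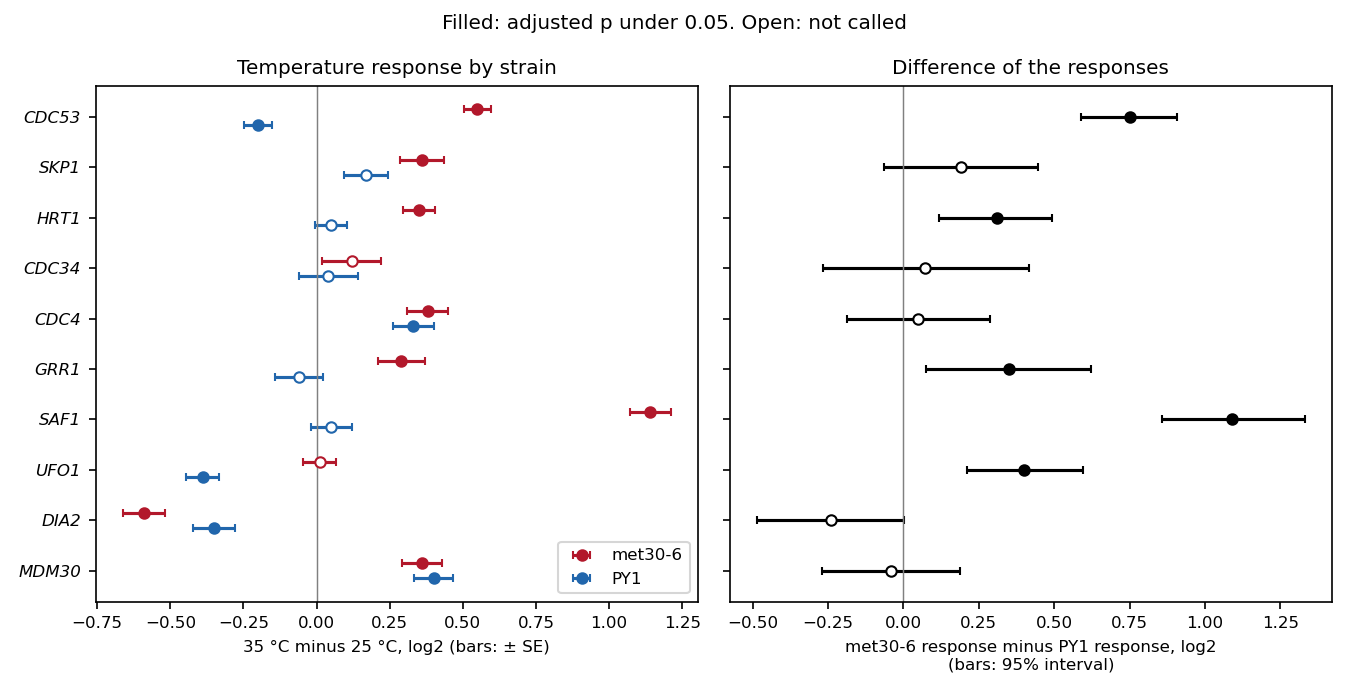
Left, the 35 °C minus 25 °C difference (log2, ± SE) of each gene in met30-6 (red) and in PY1 (blue); right, the met30-6 difference minus the PY1 difference (log2, with the 95% interval). Filled symbols have an adjusted p under 0.05. *SAF1* (1.09) and *CDC53* (0.75) lie farthest to the right, and the intervals of *SKP1*, *CDC34*, *CDC4*, *DIA2* and *MDM30* include 0.

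At 35 °C, met30-6 was higher than PY1 for 5 of the 10 genes and lower for 2, where 66.7% of all genes were called, 34% higher and 32.7% lower. *SAF1* was 2.30-fold higher (1.20 ± 0.0700), *CDC53* 1.72-fold (0.78 ± 0.0474), *GRR1* 1.41-fold (0.50 ± 0.0813), *UFO1* 1.39-fold (0.48 ± 0.0572) and *HRT1* 1.20-fold (0.26 ± 0.0555). Their adjusted p ran between 1.37e-05 and 0.00531. *MDM30* was lower by 0.26 on the log2 scale (−0.26 ± 0.0675, adjusted p = 0.0127) and *DIA2* by 0.23 (−0.23 ± 0.0721, adjusted p = 0.0275).

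The calls of *MDM30* and *DIA2* depended on scaling and on single arrays. With quantile normalisation *MDM30* was at −0.14 (adjusted p = 0.0846) and *DIA2* at −0.10 (adjusted p = 0.237). The call of *MDM30* also ended without PY1 35 °C replicate 2 or met30-6 35 °C replicate 1 (−0.20 in each case). That of *DIA2* also ended without PY1 35 °C replicate 2 (−0.15), without met30-6 35 °C replicate 2 (−0.16), or with the arrays at 35 °C alone (−0.23, adjusted p = 0.0588). *CDC34* and *CDC4* each differed by −0.02, with intervals of −0.26 to 0.22 and −0.18 to 0.15. *SKP1* was at 0.17 (adjusted p = 0.0873), and was called with array medians centred (0.24, adjusted p = 0.00995) and with an intensity trend in the variance (0.17, adjusted p = 0.0494). With quantile normalisation *SKP1* was at 0.01 (adjusted p = 0.902).

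At 25 °C limma called 0 of the 10 genes between met30-6 and PY1, where 12.9% of all genes were called, 6.94% higher and 5.95% lower. The unadjusted p of limma was under 0.05 for 1 of them. This was *MDM30* (−0.22 ± 0.0675, adjusted p = 0.0839). *GRR1* was at 0.15, with an interval of −0.04 to 0.34, and *SAF1* at 0.11, with an interval of −0.06 to 0.28. The other 7 lay between −0.09 and 0.07.

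The members also differed in how alike their profiles were. As a measure of likeness, each gene's values were centred on its own mean over the 8 arrays, and the root mean square difference between profiles was taken. The profiles were not scaled, so genes that vary little come out close by this measure. The root mean square about the own mean was 0.154 for *SKP1* and 0.14 for *HRT1*, against 0.522 for *SAF1*. Among the 10 genes *SKP1* and *HRT1* were closest (0.0735 log2 units), followed by *SKP1* and *CDC4* (0.0867). The core gene *CDC53* was nearer to the F-box gene *GRR1* (0.129) than to the core genes *HRT1* (0.188), *SKP1* (0.228) and *CDC34* (0.301). *SAF1* and *DIA2* were farthest apart (0.739).

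Among all genes, *YNL115C* (0.0528), *GLO1*, which encodes glyoxalase I (0.0622), and *TMA17*, which encodes a chaperone of proteasome assembly (0.0704), had the profiles nearest to that of *SAF1*. The interaction values of these genes were 1.06, 0.92 and 1.27. Since the genes were picked for likeness over the same arrays, values near that of *SAF1* follow from the choice. Nearest to *CDC53* were *CMK1*, a calmodulin-dependent kinase gene (0.0452), *YOR062C* (0.0548) and *PPM1* (0.0587). Nearest to *HRT1* was *RPN13*, which encodes a ubiquitin receptor of the proteasome (0.0208), ahead of *AIM6* (0.0274) and *RSF1* (0.0302). *UFO1* was nearest to *RER2* (0.0297), *MUB1* (0.0632) and *PAN3* (0.0651), and *GRR1* to *PTM1* (0.0334), *EAF3* (0.0410) and the kinase gene *HOG1* (0.0439).

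**Figure D3:**
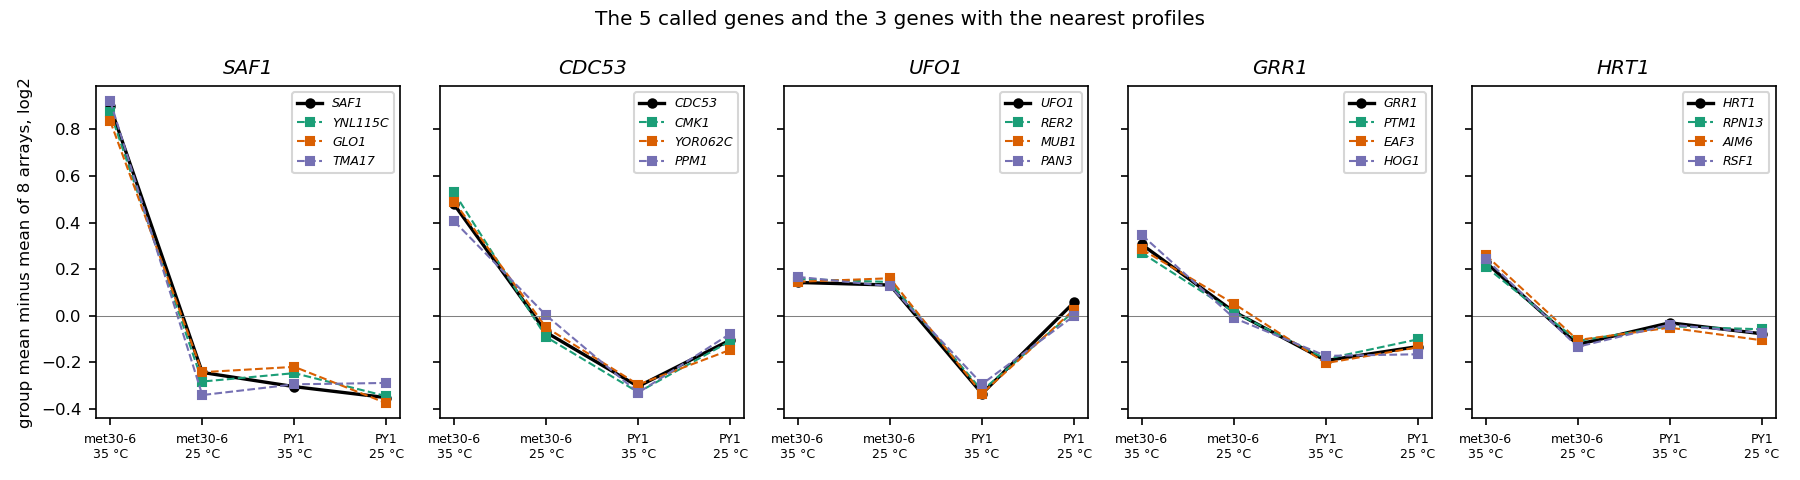
Group means (n = 2) minus the mean over the 8 arrays (log2, vertical axis) in the 4 groups (horizontal axis) for the 5 genes called in the interaction (black) and the 3 genes with the nearest profile (colours). *SAF1* and its nearest genes stand high in met30-6 at 35 °C alone, *CDC53* and its nearest are also lowest in PY1 at 35 °C, and *UFO1* and its nearest share the low PY1 value at 35 °C. The nearest genes were picked for this likeness.

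Of the adjacent genes on the chromosomes (the order of genes comes from the R64 assembly), those of *CDC53* were not called in the interaction: *SRF1* was at 0.01 and *LYS21* at −0.21. Those of *SAF1* were called higher, *PAF1* at 0.30 and *DUG2* at 0.50, less than *SAF1* itself. Beside *HRT1* (0.31), *GAS4* was higher at 1.36 and *MED7* was not called (−0.16). *AIM33* was higher at 0.62 beside *UFO1* (0.40), whose other neighbour was not measured. Next to *GRR1* (0.35), *JSN1* was higher at 0.40 and *BIR1* was not called (−0.03). The neighbours of *DIA2* (−0.24, not called), *ATX2* at −0.33 and *TGL5* at −0.75, were called lower. Of the 18 measured neighbours of the 10 genes, 6 were higher and 4 lower, where 23.7% of all genes were higher and 24.5% lower. None of the 10 genes overlapped another gene in that assembly's table.

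Of 12 other F-box genes listed, 10 were measured, of which 2 were higher and 0 lower in the interaction, with a median of 0.06. Over all genes 23.7% were higher and 24.5% lower. *HRT3*, which encodes an F-box protein, had the larger value of the 2 called (0.45 ± 0.0780, adjusted p = 0.0036). It averaged 11.17 ± 0.0566 in met30-6 at 35 °C, 10.80 ± 0.0304 in met30-6 at 25 °C, 10.77 ± 0.0346 in PY1 at 35 °C and 10.85 ± 0.0311 in PY1 at 25 °C (SD, n = 2). *YDR131C* was at 0.29 (adjusted p = 0.0282), and its call ended without any single met30-6 array, without PY1 25 °C replicate 2 or without PY1 35 °C replicate 1, with values from 0.23 to 0.46 over all alternatives. With temperature, 7 of the 10 rose and 1 fell in met30-6, and 3 rose and 0 fell in PY1. Over all genes 38.8% rose and 29.3% fell in met30-6, and 26.2% rose and 10.4% fell in PY1. Leaving out any single met30-6 array brought the 8 calls in met30-6 down to as few as 3. *DAS1*, another F-box gene, rose by 0.53 in met30-6 and by 0.39 in PY1.

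Genes for the modification of the cullin and the assembly of SCF complexes went in different directions. Cdc53 is modified with the ubiquitin-like protein Rub1, and the COP9 signalosome takes the modification off. Of 12 genes 2 were higher and 1 lower in the interaction, with a median of 0.07, where 48.3% of all genes were called in either direction. Without PY1 25 °C replicate 2, and likewise with quantile normalisation, 5 of the 12 were called. *RRI2*, a signalosome subunit gene, was at 0.86 ± 0.104 (adjusted p = 0.000795) and *ULA1*, whose product works with Uba3 in activating Rub1, at 0.62 ± 0.0868 (adjusted p = 0.00151). *CSN9*, which encodes another signalosome subunit, was at −1.44 ± 0.124 (adjusted p = 0.000209).

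*CSN9* read 8.732 and 8.691 in met30-6 at 35 °C, against 8.977 and 8.871 at 25 °C, and 10.208 and 10.237 in PY1 at 35 °C, against 8.871 and 9.118 at 25 °C. The PY1 arrays at 35 °C stood above all others. *RRI2* read 10.682 and 10.706 in met30-6 at 35 °C, against 9.344 and 9.395 at 25 °C, and 9.805 and 10.007 in PY1 at 35 °C, against 9.436 and 9.447 at 25 °C. It rose in each strain, by 1.32 in met30-6 and 0.46 in PY1. *LAG2*, whose product restrains the attachment of Rub1 to Cdc53, rose by 0.64 in met30-6 and 0.41 in PY1, and *DCN1*, whose product promotes it, by 0.47 and 0.39. The interaction was not called for *LAG2* (0.23), *DCN1* (0.08), *RUB1* (−0.12), *UBC12* (0.06) or *UBA3* (0.12).

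Genes for cullins, RING proteins and adaptor-type subunits of other cullin ligases gave 0 higher and 1 lower call of 7 in the interaction, with a median of 0.01, beside 48.3% of all genes called. The cullin genes *RTT101* (0.02) and *CUL3* (−0.08) were not called, and *RTT101* rose in each strain, by 0.45 in met30-6 and 0.43 in PY1. *MMS1*, an adaptor gene of the Rtt101 ligase, was at −0.25 (adjusted p = 0.0329). That call ended with array medians centred, with quantile normalisation and without PY1 25 °C replicate 2, either PY1 array at 35 °C, either met30-6 array at 25 °C or met30-6 35 °C replicate 2, with values from −0.28 to −0.12 over all alternatives.

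Of 18 genes that encode known SCF substrates, 8 were called lower and 3 higher in the interaction, with a median of −0.21. Of all genes 24.5% were lower and 23.7% higher. These are transcript levels, and the proteins were not measured. *AAH1*, the gene of the Saf1 substrate, read 10.958 and 10.480 in met30-6 at 35 °C, against 12.129 and 12.153 at 25 °C, and 12.129 and 12.250 in PY1 at 35 °C, against 12.197 and 12.174 at 25 °C. The met30-6 arrays at 35 °C were the low ones. Its interaction was −1.43 ± 0.202 (adjusted p = 0.00153), where *SAF1* had 1.09.

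*HO*, the gene of the Ufo1 substrate, averaged 5.78 ± 0.142 in met30-6 at 35 °C, 11.53 ± 0.0424 in met30-6 at 25 °C, 11.49 ± 0.119 in PY1 at 35 °C and 11.65 ± 0.0240 in PY1 at 25 °C (SD, n = 2). It was dim in met30-6 at 35 °C, so the size of its interaction (−5.59) is uncertain. Of the Grr1 substrates, *CLN1* was at −1.44, *CLN2* at −1.43 and *GIC2*, which encodes a Cdc42 effector, at −0.93, whereas *MTH1*, a regulator gene of glucose transport, was at 0.57. *STD1*, the paralog of *MTH1*, was not called (−0.17). *HOF1* (−0.32), another Grr1 substrate gene listed, was called and is taken up below.

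*SIC1* (−0.03), *FAR1* (0.23) and *GCN4* (−0.02), which encode substrates of Cdc4, were not called in the interaction. They do not stand for every Cdc4 substrate listed. *TEC1* (0.83), *CDC6* (−0.35), *SWI5* (−0.33) and *HAC1* (0.40), all taken up below, were called. *FAR1*, a cell cycle inhibitor gene of the pheromone response, fell by 1.13 in met30-6 and fell by 1.36 in PY1. *TEC1*, a transcription factor gene, was at 0.83, with met30-6 lower than PY1 by 0.86 on the log2 scale at 25 °C (−0.86) and a difference of −0.04 at 35 °C. *FZO1*, the gene of the Mdm30 substrate, was at 0.24 and not called (adjusted p = 0.0541).

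The remaining called substrate genes had smaller values whose calls ended when single arrays were left out. *HAC1*, of the unfolded protein response, was at 0.40 and *HOF1*, of cytokinesis, at −0.32, and each call ended without PY1 35 °C replicate 1, met30-6 25 °C replicate 2 or met30-6 35 °C replicate 2, with values from 0.20 to 0.49 and −0.36 to −0.22 over all alternatives. *CDC6*, of origin licensing, was at −0.35, and its call ended without any single PY1 array, met30-6 25 °C replicate 2 or met30-6 35 °C replicate 2 (−0.43 to −0.26). *SWI5*, a transcription factor gene, was at −0.33, and its call ended with quantile normalisation and without any single array but met30-6 35 °C replicate 1 (−0.44 to −0.22). Without PY1 35 °C replicate 1, met30-6 25 °C replicate 2 or met30-6 35 °C replicate 2 the number of called substrate genes, 11, fell to as few as 7.

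**Figure D4:**
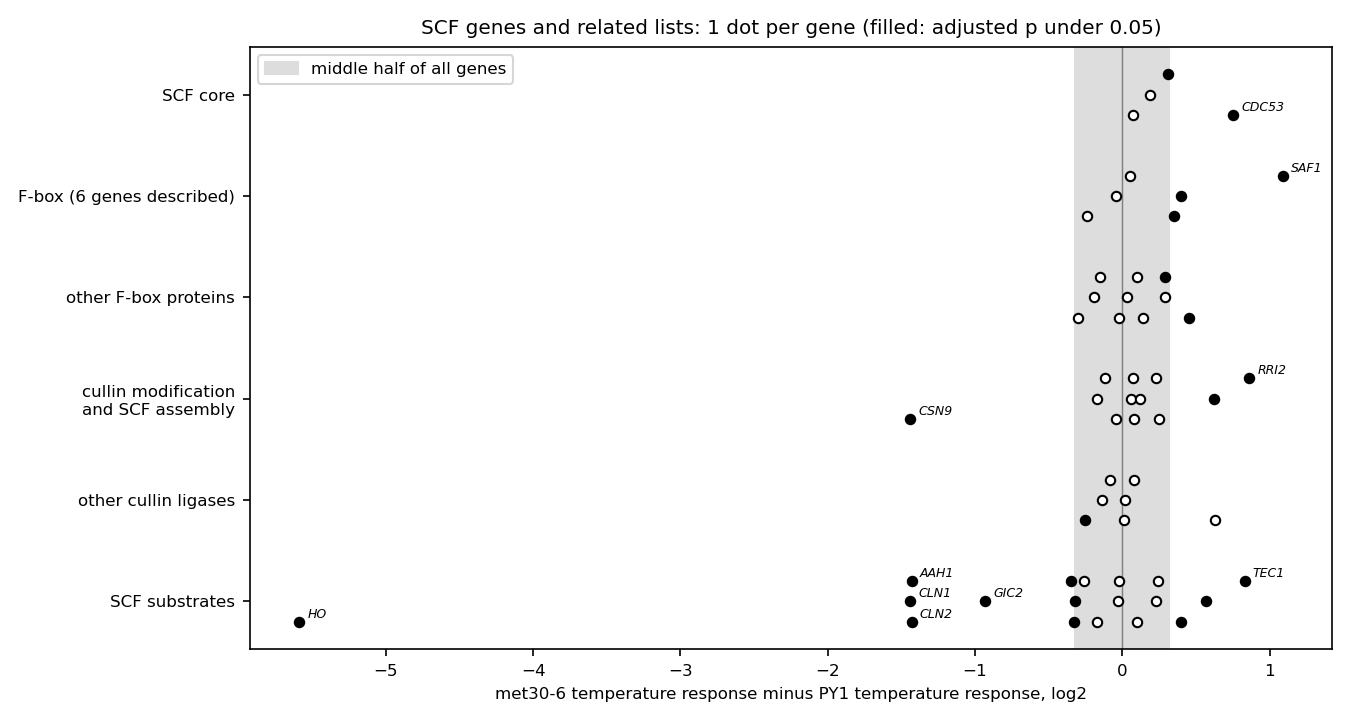
Interaction value (log2, horizontal axis) of every measured gene of the SCF core, the 6 F-box genes and 4 related lists (rows); filled dots have an adjusted p under 0.05, and the grey band spans the quartiles of all genes (−0.32 to 0.32). *SAF1*, *CDC53*, *RRI2* and the substrate gene *TEC1* are among the genes to the right of the band, and *CSN9*, *AAH1*, *CLN1*, *CLN2*, *GIC2* and *HO* are among those to its left.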

How the data were processed

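The log2 expression values were deposited by the authors as 1 table of 5716 probe sets and 8 arrays. Biotin-labelled cRNA was hybridised to Affymetrix arrays, per the labels' protocols. Background correction, summarisation and scaling are not stated there, and the log base was inferred from the range of 0 to 14.508. No detection calls or scanner signals were analysed here. Arrays were grouped by sample title. Probe sets were named through the platform's annotation, with 12 symbols updated from the R64 gene table, and 218 were unnamed. For a gene with several probe sets (47 genes), the one with the highest mean was kept.

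A mean per group was fitted to all 8 arrays and 5449 genes with limma 3.58.1 in R 4.3.3 (lmFit, eBayes), with 4 residual and 2.7 prior degrees of freedom, and 5 contrasts were tested, two-sided, with Benjamini-Hochberg adjustment over all genes. The fit was tested on simulated data. The number of arrays limits the precision. The named genes are the 10 members, members of 4 related lists (those called in the interaction, or among the 4 with the lowest adjusted p in a contrast, and others named for their role after their values were seen), and 3 nearest profiles for each member called in the interaction. Members, lists and rules were chosen with earlier results of these data known. The adjacent genes on the chromosomes were added after the values were seen. Alternatives covered scaling, dim genes, probe set choice, the variance prior, arrays fitted, a replicate block and each array left out. Replicate numbers were not used as pairs in the main fit. Deviations of same-numbered arrays correlated at between −0.182 and 0.109 across genes over the 6 pairs of groups. These correlations cannot show whether same-numbered arrays were handled together. Gene positions in the R64 gene table were used only for which genes are adjacent or overlap. Protein, promoter and genome sequences were not used here.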

Additional observations from a re-analysis of the deposited data

Results flagged for a closer look

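The temperature response differed between met30-6 and PY1, by the interaction in limma, for 5 of the 10 genes: *SAF1* (1.09), *CDC53* (0.75), *UFO1* (0.40), *GRR1* (0.35) and *HRT1* (0.31). It also differed for genes of the related lists. Among other F-box genes these were *HRT3* (0.45) and *YDR131C* (0.29). Among genes of cullin modification and of other cullin ligases they were *RRI2* (0.86), *ULA1* (0.62), *CSN9* (−1.44) and *MMS1* (−0.25). Among genes of SCF substrates they were *TEC1* (0.83), *MTH1* (0.57), *HAC1* (0.40), *HOF1* (−0.32), *SWI5* (−0.33), *CDC6* (−0.35), *GIC2* (−0.93), *AAH1* (−1.43), *CLN2* (−1.43), *CLN1* (−1.44) and *HO* (−5.59). With 48.3% of all genes called in the same test, a call by itself does not set a gene apart. With 2 arrays a group, no search for a single array far from the others of its group was made.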

How the results depend on the processing

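The 10 genes had 50 differences in all, each recomputed under 16 alternatives. Of these 800 values, 772 kept their side of the threshold, 25 lost a call, 3 gained one and 0 reversed a called value. The number of the 10 genes called ranged from 3 to 5 for the interaction (5 as reported) and from 3 to 5 for PY1 heat (5 as reported) when single arrays were left out, and from 7 to 8 for met30-6 heat, from 5 to 7 between the strains at 35 °C and at 0 between them at 25 °C. The other alternatives moved none of these 5 counts by more than 1.5 times. With the replicate number as a block, *GRR1* kept its interaction value of 0.35 but was not called (adjusted p = 0.0728), which left 4 of the 10 genes called. The numbers of a block do not mark a known pairing here. No other call of the 10 genes changed under it, and of the related genes *CDC6*, *MMS1* and *SWI5* lost their interaction calls. Counts in the related lists were less steady: those of other F-box genes called for met30-6 heat ranged from 3 to 8 (8 with the settings of the report), of other cullin ligases for PY1 heat from 1 to 4 (4 with those settings), of cullin modification genes for met30-6 heat from 4 to 9 (5 with those settings) and of substrate genes for PY1 heat from 4 to 11 (9 with those settings). The cause of these changes was not tested. With no detection calls, signal over background could not limit the values, and the number of arrays sets the precision.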
